A study of Triticum aestivum with 8 samples.

Results

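In hexaploid bread wheat (Triticum aestivum), cultivar AiKang58, 9667 stretches of chromatin carried an ATAC-seq peak in roots and in shoot apices but none in leaves or axillary buds. They were found by merging the 4 deposited peak lists wherever peaks shared at least 1 bp and keeping the merged regions with a root and a shoot apex peak alone. They made up 4.36% (95% Wilson interval 4.27 to 4.44) of 221805 merged regions and covered 4.98 of 184 Mb. Roots, shoot apices and leaves came from 2-week-old seedlings kept at 22 °C for 16 h of light and at 19 °C for 8 h of dark. The labels give the same light and dark regime for the plants of the axillary buds, besides the cold. The axillary buds, 1.0 to 2.0 cm long, came from plants labelled as 6 weeks old, after 30 days at 4 °C, so that organ, age and cold differ together between buds and the other samples. All plants are of 1 cultivar, and no genotype or agent other than the cold distinguishes them. Each list stands for 2 libraries and holds positions only, without heights, scores or genes, so tissue markers could not be checked and no value has a spread between replicates.

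In ATAC-seq a transposase inserts adapters where DNA is not wrapped tightly on nucleosomes, and peaks mark such accessible stretches, among them promoters and enhancers to which transcription factors bind. The series studies the wheat SPL proteins, plant transcription factors that control shoot architecture and the timing of development. Roots and shoots each grow from a meristem, a pool of dividing cells at the tip, and the shoot apex holds the shoot meristem with the youngest leaf primordia. The labels do not say which part of the root was sampled. Wheat has 3 related subgenomes, A, B and D, each with 7 chromosomes, and its genes lie mostly toward the chromosome ends, while the interior is rich in transposable elements.

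The overlap of the peaks chose these regions, so the widths and overlaps that follow are descriptions without a test. The regions were narrow, and most consisted of 1 root peak and 1 shoot apex peak, with centres within 50 bp of each other in 60.3% of such pairs. The merged region had a median width of 414 bp (quartiles 325 and 597 bp, range 225 to 6419 bp). Regions of at most 500 bp made up 65.4% (64.4 to 66.3) of them, against 45.7% of all merged regions, and only 627 reached 1 kb and 55 reached 2 kb. Such narrow regions made up 69.3% of root-only and 79.5% of shoot-apex-only regions, and 27.3 to 36.8% of the other classes of exactly 2 tissues. The root peak had a median of 350 bp and the shoot apex peak of 325 bp, while the whole lists have medians of 500 bp in roots and 525 bp in shoot apices. No list holds a peak under 201 bp, so these peaks lie close to the lower limit of the lists. Of the 9667 regions, 9571 (99.0%) held a single peak of each tissue, 59 held 1 root peak with several shoot apex peaks and 37 held several root peaks with 1 shoot apex peak.

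The root peak was the wider of the pair more often than the shoot apex peak. Root peaks covered more bases in 5394 regions (55.8%, 54.8 to 56.8), shoot apex peaks in 3236 (33.5%, 32.5 to 34.4), and 1037 (10.7%) had equal bases. Over all 73646 regions with a root and a shoot apex peak the order was the other way round, with root wider in 37.4% and shoot apex wider in 56.8%. Where root was wider, the difference had a median of 76.0 bp (quartiles 50 and 200 bp), and where shoot apex was wider it was 100 bp (50 and 250 bp). In 3562 regions (36.8%) the shoot apex peak lay wholly inside a wider root peak, and in 1706 (17.6%) the root peak lay inside a wider shoot apex peak. In 4314 (44.6%) each peak reached beyond the other, and in 85 (0.879%) the 2 peaks had the same start and end.

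**Figure D1:**
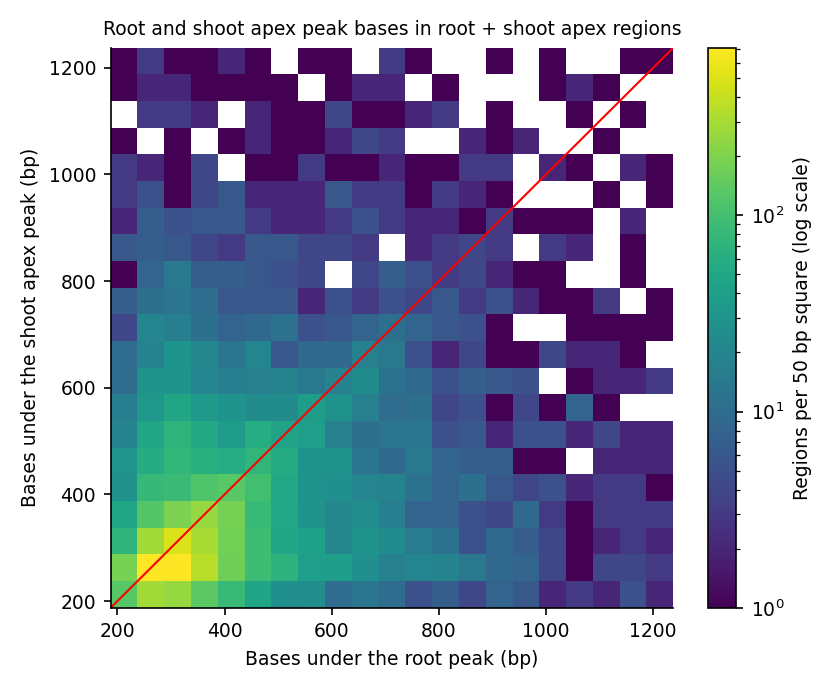
Bases under the root peak (horizontal axis, bp) against bases under the shoot apex peak (vertical axis, bp), with color giving the number of regions per 50 bp square on a log scale, white squares holding none, and the red line marking equal widths. The plot holds 9389 regions, the other 278 (2.88%) being wider than its axes, and most lie near the lower left corner, around the medians of 350 bp in roots and 325 bp in shoot apices.

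The excess of wider root peaks was present at each region width. Among regions of up to 350 bp the root peak was wider in 55.6% and the shoot apex peak in 23.7% (3440 regions). Over 350 and up to 500 bp root was wider in 58.4% and shoot apex in 33.2% (2882 regions). Over 500 and up to 1000 bp root was wider in 52.9% and shoot apex in 44.1% (2737 regions), and over 1000 bp root in 57.1% and shoot apex in 42.4% (608 regions). Narrow regions of the other classes with both peaks also had the wider peak in root more often. The match of widths is unlike, since merged width in those classes includes leaf or bud peaks. Up to 350 bp, root was wider in 43.3% and shoot apex in 34.1% where leaves also had a peak. The corresponding shares were 48.0% for root and 29.0% for shoot apex where buds also had one, and 37.9% for root and 27.3% for shoot apex in all 4 tissues. Over 1000 bp, root was wider in 50.8% and shoot apex in 47.8% with leaves, root in 41.1% and shoot apex in 56.7% with buds, and root in 25.7% and shoot apex in 72.3% in all 4 tissues. Over all widths, regions of leaf, root and shoot apex had the wider peak in root in 48.6% and in shoot apex in 45.4%. With peaks under 507 bp, the median of the 4 lists, left out of every list, the members had the wider peak in root in 47.6% and in shoot apex in 44.8%.

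**Figure D2:**
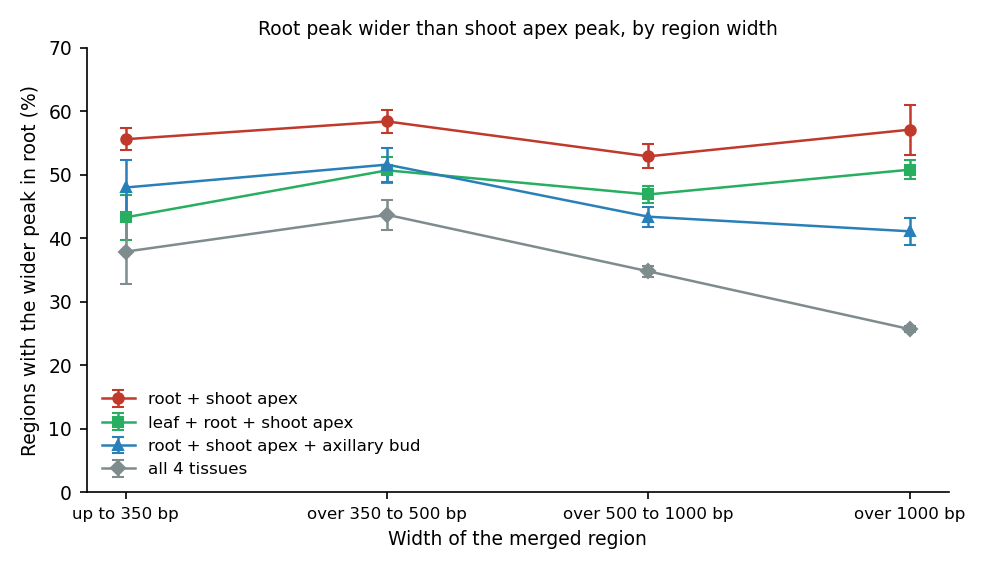
Percentage of regions whose root peak covers more bases than the shoot apex peak (vertical axis) in 4 classes of merged region width (horizontal axis), for the 4 sets of tissues that include root and shoot apex; bars are 95% Wilson intervals, which cover counting error over regions only. Regions of root and shoot apex alone lie between 52.9 and 58.4%, above the other 3 classes at each merged width, which in those classes includes leaf or bud peaks.

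With no account taken of width, the peaks of these regions coincided more closely than those of the other classes of exactly 2 tissues. The Jaccard index, the bases under both peaks as a share of the bases under either, had a median of 74.2% (quartiles 54.5 and 86.4%). It was at least 75% in 4783 regions (49.5%, 48.5 to 50.5), against 36.5% of all regions with a root and a shoot apex peak. This pooled excess went with the small width of the members. Within classes of merged width, the order against regions that also had leaf or bud peaks was turned. The match is unlike, since merged width there includes leaf or bud peaks, while in members it is the root and shoot apex bases alone. The other classes of exactly 2 tissues were not compared at matched width. In regions of up to 350 bp the median was 84.6% in members, 84.9% with leaves, 88.5% with buds and 91.0% in all 4 tissues, and over 1000 bp it was 35.5%, 45.9%, 44.9% and 58.0%, in the same order. Among the classes of exactly 2 tissues, the median was 60.6% for leaf and shoot apex regions, 57.7% for leaf and root, 52.9% for leaf and axillary bud, 52.6% for root and axillary bud and 52.0% for shoot apex and axillary bud. The peaks of root and shoot apex shared a median of 275 bp. As separate medians over regions, the shared part was 86.3% of the root peak and 96.3% of the shoot apex peak. Where each tissue had 1 peak, the centres were a median of 33.5 bp apart, and 5776 pairs (60.3%, 59.4 to 61.3) lay within 50 bp. Median centre distances in the other classes of 2 tissues were 77.0 to 112 bp, and their peaks were wider, with medians of 375 to 521 bp.

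**Figure D3:**
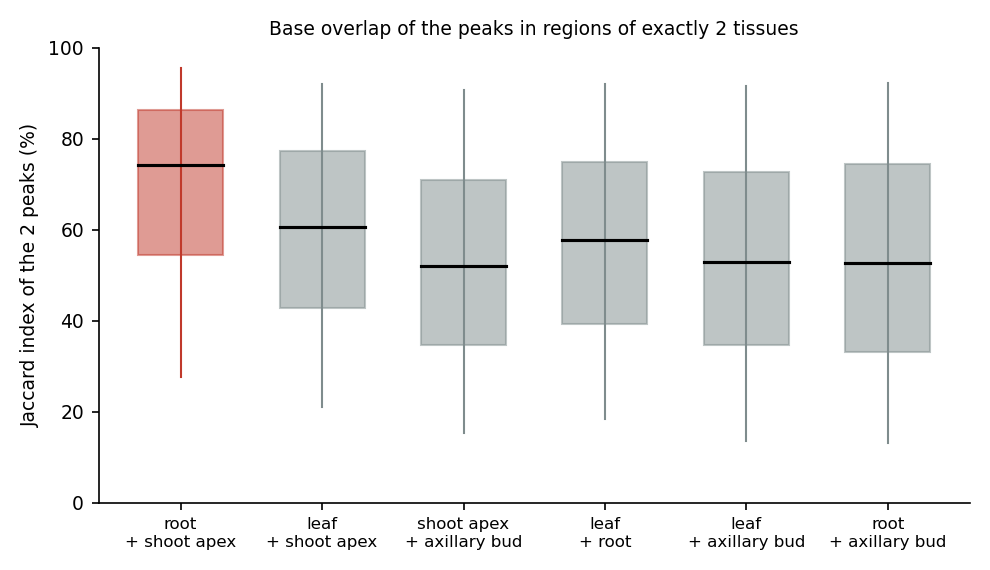
Jaccard index of the 2 peaks (vertical axis, percent) in the 6 classes of regions found in exactly 2 tissues, with boxes for the quartiles, black lines for the medians and thin lines from the 5th to the 95th percentile of regions. The median of root and shoot apex regions is 74.2%, against 52.0 to 60.6% in the other classes.

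Close overlap went with small width within the class as well, in part by definition. In members the merged width is the denominator of the Jaccard index, and no peak is under 201 bp. Narrow members thus have to share many bases, and poor overlap itself widens a region. The median Jaccard index was 84.6% in regions of up to 350 bp, 73.3% over 350 and up to 500 bp, 52.2% over 500 and up to 1000 bp and 35.5% over 1000 bp. Regions with equal bases in both tissues were the narrowest, with a median width of 309 bp and a Jaccard index of 94.0%. Those with the wider peak in root had a median width of 404 bp, and those with the wider peak in shoot apex 475 bp. The widest member was an exception. On chromosome 2A from 55852433 to 55858851 it had 5253 bp under the root peak and 6350 bp under the shoot apex peak, with 5184 bp shared (Jaccard index 80.8%). The nearest leaf peak lay 15373 bp from it and the nearest bud peak 5760 bp. Positions are those of the deposited lists, with the starts changed to count from 1. No source used here names the build of the lists.

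Each of the next 4 widest members paired a wide peak of one tissue with a shorter peak of the other, and the members with the largest differences in width are given with them. On 2B from 164422933 to 164427739 a root peak of 450 bp lay inside a shoot apex peak of 4807 bp, and on 3B from 463254261 to 463258210 a root peak of 400 bp lay inside one of 3950 bp. On 6A from 113515835 to 113518909 the root peak had 600 bp and the shoot apex peak 3075 bp. The opposite held on 7A from 675576678 to 675580277, with 3600 bp in root and 425 bp in shoot apex. It also held on 6A from 546991318 to 546994392 (3075 bp in root and 375 bp in shoot apex) and on 2D from 617991210 to 617994272 (3063 bp in root and 375 bp in shoot apex). The fifth widest member, on 2A from 16898062 to 16901210, joined 2 root peaks of 950 bp in all to a shoot apex peak of 3149 bp. Most peaks were found on 3D from 456596428 to 456598852, where 3 root peaks covered 1825 bp and 1 shoot apex peak 1650 bp. On 7B from 667194785 to 667196243 a root peak of 1077 bp met 3 shoot apex peaks of 875 bp in all, and on 1A from 2804409 to 2805174 a root peak of 766 bp held 2 shoot apex peaks of 475 bp in all. At the other extreme, 225 bp identical in both tissues made up the narrowest members, on 3D from 550201965 to 550202189, on 4A from 434902613 to 434902837 and on 4B from 647390356 to 647390580.

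Few members sat at the edge of the rule. The shared stretch was 25 bp or less in 12 regions and 26 to 100 bp in 61. The smallest overlaps were 3 bp, on 5A from 673783514 to 673784385 and on 7A from 643416971 to 643417617, and 7 bp on 2D from 75097038 to 75097755. Just outside, 1 root-only region touched a shoot-apex-only region without sharing a base, 11 such pairs lay 1 to 25 bp apart and 36 lay 26 to 100 bp apart. A leaf peak touched 2 members, on 3D from 492129538 to 492130162 and on 4B from 516502376 to 516503031, and 31 others had one within 100 bp. A bud peak lay within 100 bp of 83 members and came closest, to 2 bp, on 2D from 561915820 to 561916123.

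Peaks of the absent tissues lay at very different distances. The nearest leaf peak was a median of 8771 bp away (quartiles 2406 and 48236 bp) and the nearest bud peak 7650 bp (1702 and 56244 bp). A leaf or bud peak lay within 1 kb of 2186 members (22.6%, 21.8 to 23.5), none within 5 kb of 4498 (46.5%) and none within 50 kb of 1590 (16.4%). The nearest region of any class was a median of 1719 bp away (quartiles 625 and 7460 bp). That region was another root and shoot apex region for 993 members (10.3%), while 4.34% of all merged regions had one as nearest neighbour. Leaf and shoot apex regions lay next to their own kind in 11.1% of cases and shoot apex and bud regions in 7.78%. Root-only regions were the nearest neighbour of 15.3% of members, against 11.5% of all regions. Leaf-only regions were nearest to 6.70%, against 9.89% of all regions, and regions of all 4 tissues to 17.2%, against 19.5%.

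The next question is where along the chromosomes these regions lie, which the rule did not use. The outer 20% of the length at either end held 61.3% of them (60.3 to 62.3), close to the 62.7% of all merged regions. This was between the shares of the other classes of 2 tissues with a shoot apex peak. For leaf and shoot apex regions the share was 50.3% (49.3 to 51.3) and for shoot apex and axillary bud regions 73.9% (72.9 to 74.8). As means over the 7 homoeologous chromosome groups, the share was 61.5% in root and shoot apex regions and 50.4% in leaf and shoot apex regions. The difference was 11.2 percentage points (SD 2.30 over groups), higher in 7 of 7 groups. Against shoot apex and bud regions, with a mean of 73.9%, the difference was -12.3 points (SD 2.42), lower in 7 of 7 groups. Over the groups, each difference passed a two-sided sign-flip test that runs through every sign pattern (exact permutation p = 0.0156, the smallest that 7 groups allow, and Benjamini-Hochberg adjusted p = 0.025 over 8 tests). These p-values measure the spread between chromosome groups within the lists, not between plants or libraries.

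Within the outer 20%, fewer members than of all merged regions lay at the very end and more lay just inside it. The outermost 5% at either end held 19.8% of root and shoot apex regions (19.0 to 20.6), against 25.2% of all regions, and the next 15% held 41.5% (40.5 to 42.5), against 37.5%. The outermost share was 28.1% in root-only regions and 19.1% in shoot-apex-only regions, 14.1% in leaf and shoot apex regions and 33.7% in shoot apex and bud regions. Single chromosomes ranged in the outer 20% from 50.7% of members on 5D, 52.8% on 5B and 56.1% on 7B to 67.5% on 4A and 68.9% on 4D.

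**Figure D4:**
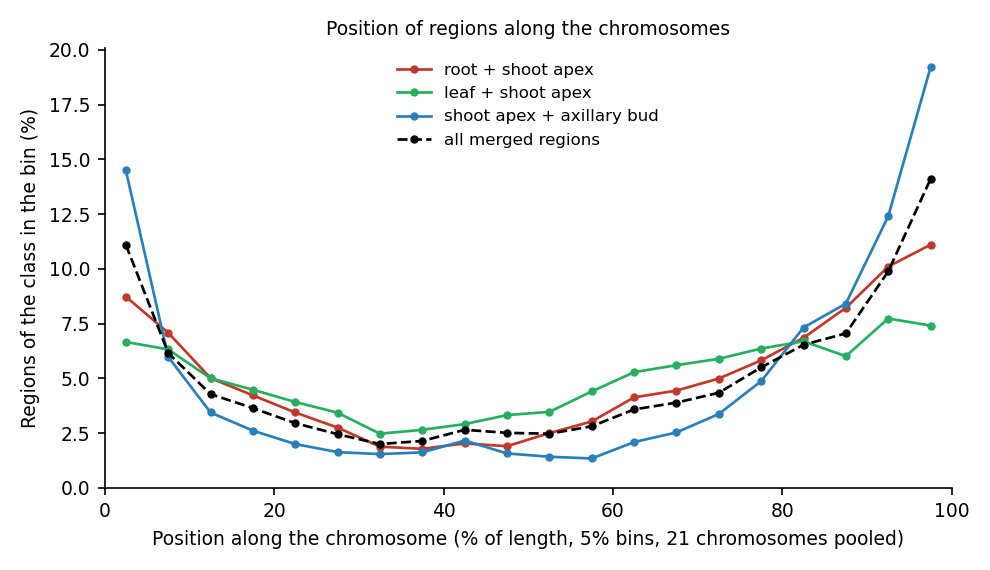
Share of the regions of a class (vertical axis, percent) in bins of 5% of the chromosome length (horizontal axis), with the 21 chromosomes pooled and the dashed line giving all merged regions. Root and shoot apex regions reach 8.73 and 11.1% in the outermost bins, between leaf and shoot apex regions (6.66 and 7.41%) and shoot apex and axillary bud regions (14.5 and 19.2%).

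Members also differed in spacing from shoot apex and bud regions. The median gap to the nearest other region was 1719 bp in root and shoot apex regions, 1541 bp in leaf and shoot apex regions and 941 bp in shoot apex and bud regions. Over all merged regions it was 1515 bp, nearer to the value of the members than to that of shoot apex and bud regions. On a log2 scale the gap of members was larger than in shoot apex and bud regions by 0.87 (SD 0.13 over groups), in 7 of 7 groups (exact sign-flip permutation p = 0.0156, adjusted p = 0.025). Against leaf and shoot apex regions it was larger by 0.17 (SD 0.18), in 5 of 7 groups, and did not pass the exact test (p = 0.0625, adjusted p = 0.0833). That difference had the opposite sign among regions of at most 500 bp (-0.0854) and with peaks up to 500 bp apart joined (-0.144), and passed in neither case.

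A gap of 50 kb or more surrounded 852 members (8.81%). These isolated members were narrower, with a median of 375 bp, and their peaks coincided more closely, with a median Jaccard index of 77.8%. Only 43.4% of them lay in the outer 20%, against 65.5% of the 3662 members with another region within 1 kb. Subgenome D held 25.2% of the isolated members, A 40.4% and B 34.4%. Of all merged regions with such a gap, D held 26.8%, A 36.3% and B 36.9%, and 39.1% were distal. These were also narrower, with a median width of 445 bp, against 550 bp in all merged regions.

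The third question is how the regions are spread over the 3 subgenomes. D held 3365 of them (34.8%, 33.9 to 35.8), A 3172 (32.8%) and B 3130 (32.4%), and of all merged regions 33.7% lay on D. Per length D was the densest, with 0.848 ± 0.0867 regions per Mb, against 0.641 ± 0.0733 on A and 0.600 ± 0.0994 on B (SD, n = 7 chromosomes each). D exceeded A by 0.207 and B by 0.248 regions per Mb, in 7 of 7 homoeologous groups each, and each difference passed the same test (exact permutation p = 0.0156, adjusted p = 0.0234 over 3 tests). A exceeded B by 0.0413 regions per Mb in 6 of 7 groups, which did not pass (exact p = 0.250, adjusted p = 0.250). All merged regions were also densest on D, with 18.9 ± 1.45 per Mb, against 14.9 ± 1.19 on A and 14.1 ± 1.51 on B (SD, n = 7). Of the merged regions of a chromosome, members made up 4.49 ± 0.225% on D, 4.30 ± 0.262% on A and 4.24 ± 0.452% on B. The order of A and B was turned in chromosome group 2, with 0.654 regions per Mb on 2A and 0.750 on 2B. Per 1000 protein-coding genes, counted in a table of another assembly, D had 99.5 regions, A 95.4 and B 88.4. On that scale D was above A in 4 of 7 groups (adjusted p = 0.188, exact permutation test) and above B in 7 of 7 (adjusted p = 0.0469).

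**Figure D5:**
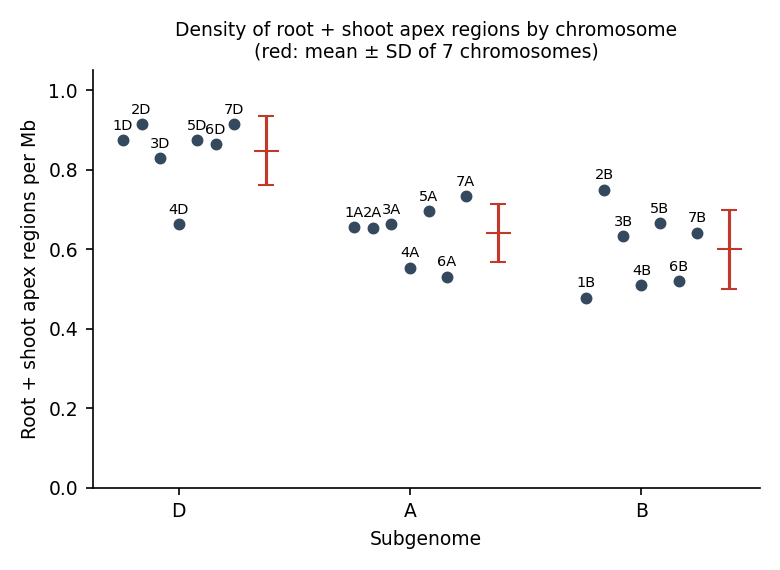
Root and shoot apex regions per Mb (vertical axis) on each of the 21 chromosomes, grouped by subgenome, with the red bar giving the mean ± SD of the 7 chromosomes of a subgenome. D chromosomes lie between 0.663 (4D) and 0.914 (2D and 7D), A chromosomes between 0.531 and 0.733, and B chromosomes between 0.478 (1B) and 0.750 (2B).

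The share on D was compared with that of the other classes of 2 tissues that have a shoot apex peak. As means over the 7 groups, D held 34.8% of root and shoot apex regions and 33.0% of leaf and shoot apex regions, a difference of 1.86 percentage points (SD 1.19), higher in 7 of 7 groups. Against shoot apex and bud regions, with 31.9% on D, the difference was 2.86 points (SD 2.30), also higher in 7 of 7 groups. Each passed the test (exact permutation p = 0.0156, adjusted p = 0.025). The differences are small, and other classes had similar shares, with 35.1% on D in root-only regions, 34.6% in regions of root, shoot apex and bud and 34.4% in leaf and root regions. The difference from leaf and shoot apex regions did not pass the exact permutation test with lists cut to equal length (1.63 points, adjusted p = 0.143) or with 50% of the region to be covered by a tissue (1.16 points, adjusted p = 0.05). Neither passed among peaks at least as wide as the median of the 4 lists, 507 bp (1.65 points against leaf and shoot apex regions, adjusted p = 0.232, and 3.03 points against shoot apex and bud regions, adjusted p = 0.0625, exact permutation test). The share on B passed the test against neither class (-0.0759 points against leaf and shoot apex regions, adjusted p = 0.875, and -2.08 points against shoot apex and bud regions, adjusted p = 0.214, exact permutation test).

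As a share of a chromosome's own merged regions, members ranged from 3.47% on 6B (95% interval 3.14 to 3.83) and 3.84% on 4B to 4.83% on 2B (4.46 to 5.22) and 7D (4.46 to 5.23). The first 240 Mb of 1B held 27 members, or 0.113 per Mb, against 0.566 per Mb in the matching part of 1A and 0.673 per Mb in that of 1D. All merged regions were likewise sparse there, at 2.68 per Mb on 1B, against 12 on 1A and 15.8 on 1D, and members made up 4.20% of them on 1B, 4.72% on 1A and 4.27% on 1D. The wider peak lay in root in 57.8% of members on D, 53.3% on A and 56.1% on B. By chromosome that share ran from 45.7% on 5A to 60.9% on 6D, and 5A was also the chromosome where shoot apex peaks were wider most often (42.5%). Members of the outer 20% had a median width of 424 bp, a Jaccard index of 73.9% and a wider root peak in 56.7%, against 404 bp, 74.8% and 54.3% in the interior.

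Most members had no other member next to them, but members made up only 4.36% of all merged regions. A member was the nearest region more often for members (10.3%) than for all merged regions (4.34%). Of the 13698 windows of 1 Mb that held any merged region, 7833 (57.2%) held no member, 3488 held 1 and 50 held 6 or more. Going along the chromosomes, 8117 members had no member as a direct neighbour, and the rest formed 671 runs of 2 and 67 longer runs. The window with most members, 10 of 61 merged regions, was on 5A from 651000001 to 652000000. Its members were wide, with a median of 1188 bp, and in 9 of the 10 the shoot apex peak was the wider. On 651762150 to 651763899, for example, the root peak had 1200 bp and the shoot apex peak 1750 bp, and from 651637364 to 651639038 the root peak had 300 bp and the shoot apex peak 1675 bp. The next windows, on 4D from 6000001 to 7000000 with 9 members and on 1A from 52000001 to 53000000 with 8, held members of the usual width (medians 350 and 366 bp). On 1A from 7000001 to 8000000 and from 575000001 to 576000000, with 8 members each, the medians were 575 and 562 bp.

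The longest run without a region of another class in between had 6 members, on 7D from 110601832 to 110791805. Of these, 4 lay within 110601832 to 110604878. In the first, from 110601832 to 110602133, each tissue had 300 bp and the peaks shared 298 bp, and in the second, from 110602459 to 110602787, each had 325 bp with 321 bp shared. Runs of 4 members lay on 1A from 585742643 to 585784772, spanning 42130 bp, and on 3A from 686272905 to 686552825, spanning 279921 bp.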

How the data were processed

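ATAC-seq peaks of 8 libraries, 2 for each of 4 tissues, were available as 1 list per tissue, in which the authors deposited positions of peaks and no height or count. The submitters' processing notes name Trimmomatic 0.36, Bowtie2, MACS2 and bedtools. No source used here gives the build, the threshold for peaks or how replicates were combined. Sequencing depth is unknown: a list can be longer because more reads were sequenced, and lack of a peak does not show closed chromatin.

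No list held repeated or overlapping peaks. The last peak on a chromosome set its length, and distal regions are those with their midpoint in the outer 20% at either end. Python 3.11.15, numpy 2.4.6, pandas 2.3.3 and scipy 1.17.1 were used, with functions tested on simulated data. Intervals of shares are 95% Wilson intervals and cover counting error over regions only. Sign-flip tests used the 128 sign patterns of 7 homoeologous groups and Benjamini-Hochberg adjustment at 0.05. The class, the named regions (extremes of width, overlap and number, fullest windows, longest runs) and the tests were chosen with earlier results of these data known. Other chromosomes, isolated regions and values per region are named after their values were seen. Genes and sequences were not looked up, since the gene table on hand, of the Chinese Spring assembly, did not line up: 3.69% of members lay within 1 kb of a protein-coding gene's edge, and 3.56% after a move of 1 Mb.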

Additional observations from a re-analysis of the deposited data

Results flagged for a closer look

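Chromosome 4D had 0.663 root and shoot apex regions per Mb, apart from the other 6 D chromosomes (0.829 to 0.914, gap over range 0.661, critical value 0.568 by Dixon's test). Members made up 4.20% of the merged regions of 4D, next to 4.25 to 4.83% on the other D chromosomes. In all, 15 sets of 7 chromosomes were checked, and chance flags about 1 in 20. Of the differences between classes, 5 of 8 passed the sign-flip test (exact permutation p = 0.0156 and adjusted p = 0.025 in each case). Root and shoot apex regions had 11.2 percentage points more distal regions than leaf and shoot apex regions, and the difference from shoot apex and bud regions was -12.3 points. Their share on D was larger by 1.86 points than that of leaf and shoot apex regions and by 2.86 points than that of shoot apex and bud regions. Their gap to the nearest other region was larger than in shoot apex and bud regions by 0.868 on a log2 scale. The members themselves were close to all merged regions. Their distal share was 61.3% against 62.7%, their share on D 34.8% against 33.7%, and their median gap 1719 bp against 1515 bp.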

How the results depend on the processing

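No paired analysis was possible because positions are given per tissue and not per library, so no replicate could be left out either. Lengths from a reference and the planned look at genes and sequences were not run. Unknown depth limits every comparison of lists. Of 136 results under settings that kept the 7 groups, 99 kept their direction and side of the threshold, or stayed in their interval. The 9667 regions became 3230 with wide peaks alone (at least the median of the 4 lists) and 4498 without leaf or bud peaks within 5 kb, and 7904 to 10983 in the other settings. Root was wider more often in each setting: root and shoot apex shares were 47.6 and 44.8% with wide peaks, 47.7 and 42.0% with lists of equal length (only the 3 other lists lose narrow peaks, as roots have the shortest), 53.5 and 36.3% with 50% of the region covered, and 57.4 and 31.3% without peaks within 5 kb. Root was wider in 56.9% where gaps of 500 bp were joined, and shoot apex in 31.6% with a reciprocal overlap of 50%, where the median Jaccard index was 72.4% and 78.9%. The median width was 872 bp with wide peaks, 450 bp with equal lists or 50% cover, 375 bp with the reciprocal overlap and 400 bp without peaks within 5 kb. The distal share was 60% with wide peaks, 56.5% without peaks within 5 kb and 37.0% in the outer 10%. The causes were not tested.

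D exceeded A and B per Mb in each setting, also at 500 bp or less and without any 1 group (0.186 to 0.223 and 0.223 to 0.264). Per 1000 genes D minus A was 4.09 and did not pass. The settings on genes and 500 bp were added after seeing the data. A minus B passed with wide peaks (0.0394), equal lists (0.0430) and 50% cover (0.0903), and without group 2 (range without 1 group 0.0188 to 0.0641). Against leaf and shoot apex regions the D share did not pass with wide peaks (1.65 points), equal lists (1.63) or 50% cover (1.16). The B share passed without peaks within 5 kb (-1.99) and was 0.0253 at 500 bp or less. The gap passed without peaks within 5 kb (0.279) and was -0.144 with gaps joined and -0.0854 at 500 bp or less. Against shoot apex and bud regions the D share did not pass with wide peaks (3.03), and the B share passed with wide peaks (-4.27) and without peaks within 5 kb (-4.51). That B share also passed without group 2 (-3.11). Without 1 group the ranges against leaf and shoot apex regions were 1.53 to 2.06 (D share), -0.417 to 0.286 (B share, at 0.286, 0.00388 and 0.109 without group 4, 5 and 7), 10.7 to 11.7 (distal share) and 0.122 to 0.207 (gap). Against shoot apex and bud regions they were 2.03 to 3.14, -3.11 to -1.09, -12.9 to -11.5 and 0.850 to 0.908. With 6 groups the smallest exact sign-flip p is 0.0312. Class differences at that value mostly stopped at an adjusted p of 0.05, but reached 0.0417 without group 2.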
